A study of Mus musculus with 15 samples.

Results

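The MHC class II presentation genes are 8 genes, chosen by name, that build, load or control the molecule with which a cell shows peptides to CD4+ T cells. They were found by symbol among 45232 gene IDs of an RNA sequencing table, and all 8 passed the filter on low counts that left 17834 genes for testing. The table covers LSK cells in 5 groups of 3 libraries. These are mouse bone marrow cells that lack mature lineage markers and carry Sca-1 and c-Kit, a population of hematopoietic stem cells and early progenitors.

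The cells of 4 groups were CD45.2+ donor cells carrying conditional Jak2 V617F and Idh2 R140Q alleles, which an inducible Mx1-Cre had switched on, in lethally irradiated CD45.1 recipients that also received CD45.1 WT marrow. Jak2 V617F is the activating kinase mutation of myeloproliferative neoplasms, and Idh2 R140Q gives the enzyme a new product, 2-hydroxyglutarate. The recipients were given vehicle, the mutant IDH2 inhibitor AG221 at 40 mg/kg, the JAK1 and JAK2 inhibitor ruxolitinib at 60 mg/kg, or both drugs at those doses (combined), by gavage 2 times a day for 21 to 28 days, with the last dose about 1.5 hours before the mice were killed. The fifth group was CD45.2+ LSK cells labelled wild type (WT), and neither the labels nor the methods say whether these came from a transplant or from a treated mouse. All libraries were of strain C57BL/6. For the study as a whole the methods give mice of both sexes, 6 months to 1.5 years old, and the age behind each library was not stated in the sources used here. The sequencing is described with n = 3 per group, which equals the number of libraries, without saying outright that each library is 1 mouse. The p-values below measure the spread between these libraries.

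A class II molecule is a pair of an alpha and a beta chain. H2-Aa and H2-Ab1 encode the pair called I-A, and H2-Eb1 encodes the beta chain of I-E, whose alpha chain C57BL/6 mice lack. The invariant chain, Cd74, fills the groove of new molecules and carries them to the endosome, where the protease cathepsin S (Ctss) trims it down and the DM heterodimer (H2-DMa with H2-DMb1) exchanges the remnant for peptide. Ciita is the transactivator without which the other chain genes are hardly transcribed, and interferon-gamma induces it through JAK1 and JAK2. Class II is best known from dendritic cells, B cells and macrophages, and immature hematopoietic cells also carry it.

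In the GENCODE annotation of GRCm38, 5 members lie together in the MHC on chromosome 17: H2-DMa at chr17:34119541-34139101, H2-DMb1 at chr17:34153072-34160230, H2-Ab1 at chr17:34257689-34269419 and H2-Eb1 at chr17:34305867-34316674 on the plus strand, and H2-Aa at chr17:34282744-34287823 on the minus strand. Ciita is at chr16:10480059-10528418 and Ctss at chr3:95526786-95556403, both on the plus strand. The counts are over all exons of a gene, UTRs included. Of the exon bases of Ciita, 1.35% are overlapped on the opposite strand by Dexi, and of those of Cd74, 0.847% are overlapped by the microRNA gene Mir5107. The strand setting of the counting was not given in the sources used here. H2-DMb1 has a near-identical neighbour, H2-DMb2, so reads of this pair could be split or lost, and its level is uncertain in that sense.

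Chain genes are known to share a promoter layout in which an X box, bound by the RFX complex, is followed at a near-constant distance by a Y box, bound by NF-Y. The RefSeq promoter table of GRCm38.p6 held 250 bases upstream of the start of 5 of the 8 members and no entry for Cd74, H2-Ab1 and Ciita. Both strands were searched for the letters TNGNAAC, chosen for the X box after the sequences had been seen, and TGATTGG, for the Y box. The pair in this order on 1 strand, with at most 30 bases between them, occurred in 48 of 32851 promoters (0.146%), against 30.7% with TNGNAAC and 7.23% with TGATTGG anywhere. It was present upstream of H2-Aa, H2-Eb1 and H2-DMb1, with 26, 25 and 26 bases between the motifs, and was not found upstream of H2-DMa or Ctss. Because the letters were chosen on these sequences, the matches of the members follow from that choice, and the share over all promoters is no measure of how unusual they are. Among other class II genes searched, the motifs were paired upstream of H2-Ob, with 23 bases between them. They were not paired upstream of H2-DMb2, H2-Oa or H2-Eb2. The pair of the 2 chain genes whose levels followed each other most closely (below) is shown, 5′ to 3′ on the strand of the gene, with both motifs in capitals, from chr17:34287847-34287926 (minus) and chr17:34305754-34305832 (plus).

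H2-Aa: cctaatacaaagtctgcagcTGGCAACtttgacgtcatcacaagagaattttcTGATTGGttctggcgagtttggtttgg

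H2-Eb1: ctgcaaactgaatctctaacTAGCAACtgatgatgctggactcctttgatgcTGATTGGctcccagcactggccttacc

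A match is a description of letters, and no binding was measured here.

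Total counts ran from 18836625 to 32174287 per library (median 25545779), so that 3 counts correspond to between 0.0957 and 0.157 CPM (counts scaled to equal library size), far under the lowest level of any member. AG221 A8, AG221 A10 and ruxolitinib A16 stood apart by low counts of GC-rich genes. In these 3 libraries the median log2 deviation of the 10% of genes highest in GC content was -0.98, -0.73 and -0.35, against -0.17 to 0.35 in the other 12. Libraries of the combined and WT groups have names in B and those of the other groups names in A. The meaning of these letters was not stated, and a difference between an A group and a B group cannot be told apart from it. Fold changes closest to the threshold are given below with and without the 3 libraries low in GC-rich genes.

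All 8 genes were read at appreciable levels in every library. Per kilobase of exon, the median over the 15 libraries was highest for Cd74 (241 CPM per kilobase), followed by H2-Ab1 (155), H2-Aa (103), H2-DMa (70.3), H2-Eb1 (43.4), H2-DMb1 (34.5) and Ctss (28.4), with Ciita at 1.07. The pseudogene of the missing I-E alpha chain, H2-Ea-ps, had at most 10 counts in a library and 0 counts in 8 of the 15, which allows up to 0.141 CPM in the shallowest of these 8, and its highest level was 0.337 CPM in WT B30. In bulk samples such as these, fewer cells with class II and less class II RNA per cell cannot be told apart.

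**Figure D1:**
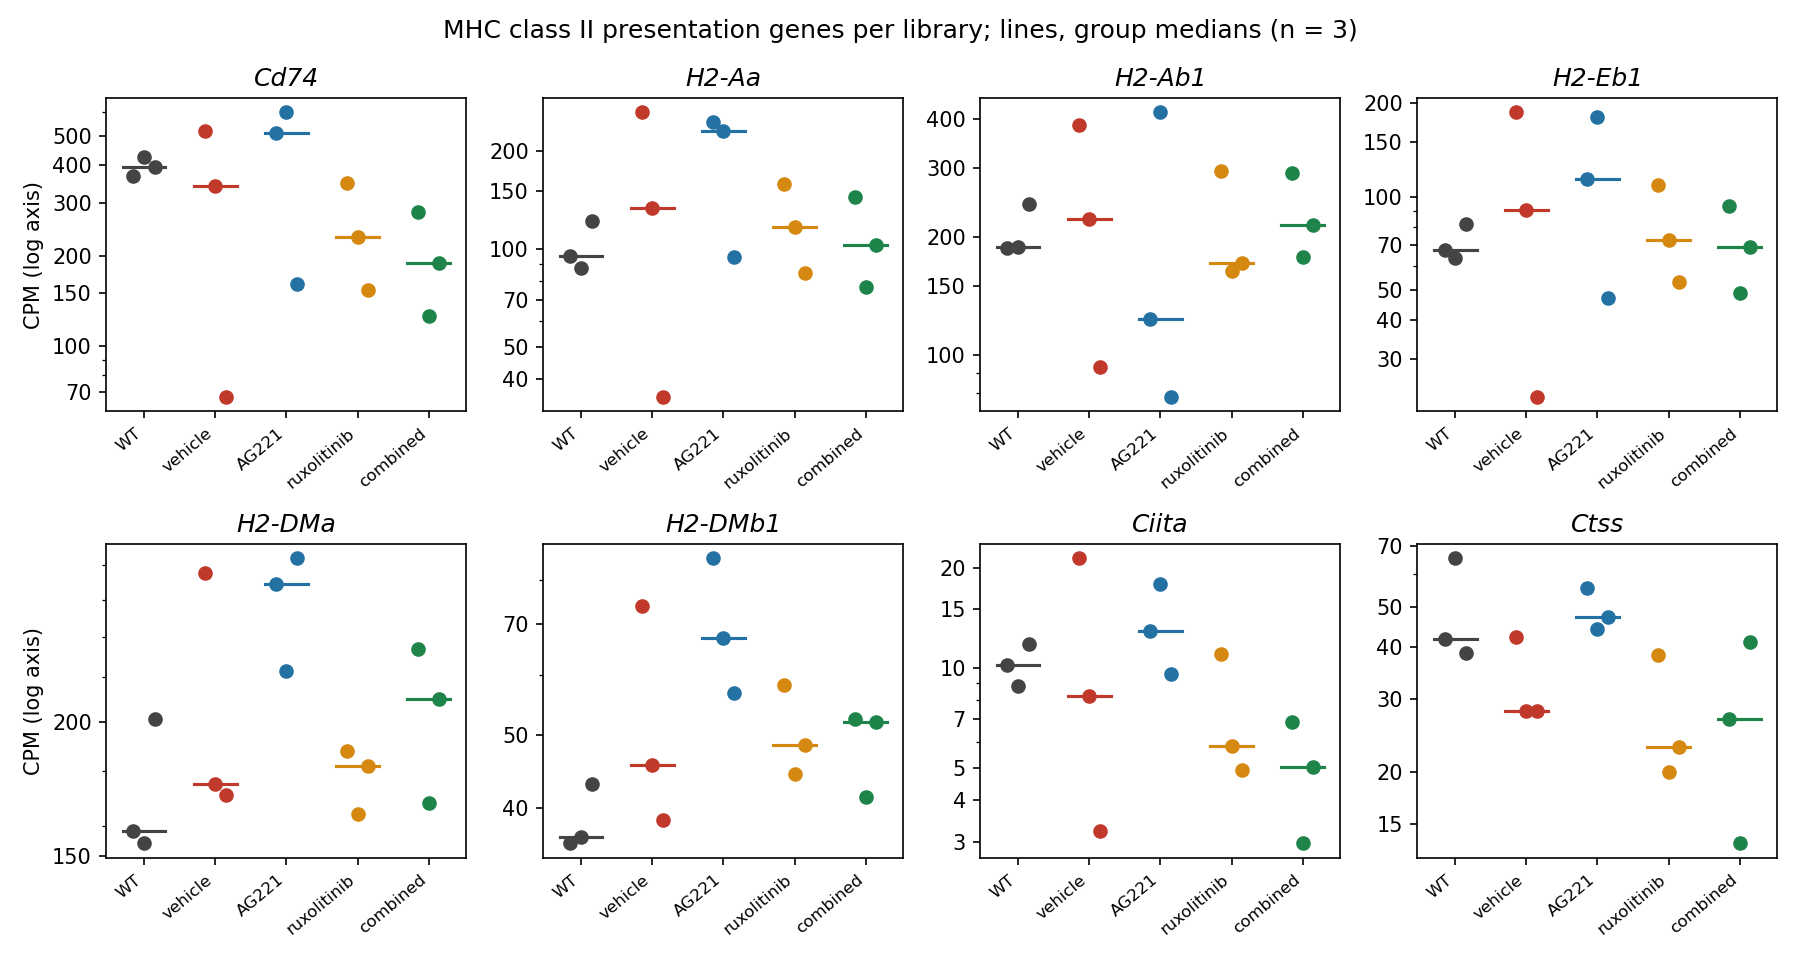
Level of each of the 8 genes in CPM (log axis, 1 panel per gene) in the 15 libraries, grouped by condition, with points for libraries and lines for group medians. The WT libraries lie close together for Cd74 (369 to 427 CPM), whereas the vehicle libraries run from 67.5 to 521 CPM.

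The chain genes did not separate the groups. H2-Aa was at 95.4, 87.4 and 122 CPM in the WT libraries B28, B30 and B31, and at 262, 133 and 35.2 CPM in the vehicle libraries A1, A3 and A4. It was at 244, 230 and 94.2 CPM with AG221 (A8, A9, A10), at 158, 117 and 84.3 CPM with ruxolitinib (A14, A16, A17), and at 144, 76.4 and 103 CPM with combined treatment (B24, B25, B26). The lowest and the highest library of all 15 were both vehicle libraries, and every group overlapped WT. By median the order was AG221, vehicle, ruxolitinib, combined and WT (230, 133, 117, 103 and 95.4 CPM), and no neighbours in it differed beyond their spread.

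H2-Eb1 followed the same course. It was at 67.1, 63.5 and 81.7 CPM in WT, at 187, 90.3 and 22.6 CPM with vehicle and at 114, 180 and 47.1 CPM with AG221. With ruxolitinib it was at 109, 72.4 and 53.1 CPM and with combined treatment at 93.1, 49.1 and 68.7 CPM, again with vehicle A1 highest and vehicle A4 lowest. H2-Ab1, the partner of H2-Aa, departed from that course in the AG221 group, at 123, 415 and 77.9 CPM. It was at 187, 188 and 242 CPM in WT, at 384, 222 and 92.9 CPM with vehicle, at 294, 163 and 171 CPM with ruxolitinib and at 291, 177 and 214 CPM with combined treatment. Its lowest library was therefore AG221 A10 and its highest AG221 A9, and all groups overlapped.

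Cd74 was the member with the tightest WT level, at 369, 427 and 394 CPM (mean 397 ± 29.2, SD, n = 3). It was at 521, 342 and 67.5 CPM with vehicle (310 ± 228), at 513, 600 and 161 CPM with AG221 (425 ± 233), at 349, 230 and 153 CPM with ruxolitinib (244 ± 98.8) and at 280, 126 and 189 CPM with combined treatment (198 ± 77.2). All ruxolitinib and all combined libraries lay under all WT libraries, whereas the vehicle and AG221 libraries lay on both sides.

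The DM genes, which edit the peptide in the groove, varied far less. H2-DMa was at 158, 154 and 201 CPM in WT, 275, 175 and 171 CPM with vehicle, 269, 223 and 284 CPM with AG221, 188, 164 and 182 CPM with ruxolitinib and 234, 168 and 210 CPM with combined treatment. H2-DMb1 was at 35.9, 36.6 and 43 CPM in WT, 73.8, 45.6 and 38.5 CPM with vehicle, 85.4, 67.1 and 56.8 CPM with AG221, 58.1, 44.3 and 48.4 CPM with ruxolitinib and 52.4, 41.3 and 51.9 CPM with combined treatment. For both genes the 3 AG221 libraries lay above the 3 WT libraries.

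Ciita was at 10.2, 8.83 and 11.8 CPM in WT, at 21.3, 8.23 and 3.24 CPM with vehicle and at 12.9, 17.8 and 9.6 CPM with AG221. It was at 11, 5.81 and 4.92 CPM with ruxolitinib and at 6.89, 2.97 and 5.04 CPM with combined treatment, so that the combined libraries were all under the WT and AG221 libraries. Ctss, the protease, was at 41.9, 65.2 and 38.6 CPM in WT, 42.3, 28 and 28.1 CPM with vehicle, 55.4, 44.2 and 47.2 CPM with AG221, 38.2, 20 and 23 CPM with ruxolitinib and 26.8, 13.5 and 41.1 CPM with combined treatment. The ruxolitinib libraries were all under the WT libraries for Ctss, and the AG221 libraries were all above the vehicle libraries.

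By group median, Cd74 stood in the order AG221, WT, vehicle, ruxolitinib, combined, as did Ciita. H2-Eb1 stood in the order AG221, vehicle, ruxolitinib, combined, WT, and H2-Ab1 in the order vehicle, combined, WT, ruxolitinib, AG221. The DM genes both stood in the order AG221, combined, ruxolitinib, vehicle, WT, and Ctss in the order AG221, WT, vehicle, combined, ruxolitinib. Neighbours in these orders overlapped except for H2-DMb1, whose AG221 libraries (56.8 CPM or more) lay above the combined libraries (52.4 CPM or less), and that difference did not pass the test given below.

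The first question of the design was whether JAK2/IDH2-mutant LSK cells differed from WT LSK cells. Without a drug, none of the 8 genes passed the test (edgeR quasi-likelihood test, Benjamini-Hochberg adjusted p between 0.14 and 0.91), in a comparison in which 33.3% of all genes tested passed it. That share was 10.5% without WT B30, 18.3% without vehicle A1 and 19.4% without vehicle A4. The largest differences were those of Ctss (log2 fold change -0.57, SE 0.358), H2-Aa (0.50, SE 0.535) and H2-Eb1 (0.50, SE 0.585). Without vehicle A1 the signs of H2-Aa, H2-Eb1, H2-Ab1 and Ciita turned, to -0.25, -0.30, -0.36 and -0.81, and without vehicle A4 that of Cd74 turned, from -0.36 to 0.14. The median over the members was 0.23 and that over all genes tested was -0.09. The 95% interval for Cd74, from -1.62 to 0.92, holds a fall as well as a rise.

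With AG221 alone, H2-DMa and H2-DMb1 were higher than in WT. The log2 fold change was 0.60 (SE 0.193, adjusted p = 0.0208 by the edgeR quasi-likelihood test) for H2-DMa and 0.86 (SE 0.231, adjusted p = 0.00885) for H2-DMb1, and the groups did not overlap for either, as was so for 25.3% of all genes in this direction. These were 2 of 8 members, against 50.7% of all genes called in this comparison and 22.2% called higher, so the share of members called was near the background for that direction. Without the 3 libraries low in GC-rich genes, of which 2 were AG221 libraries, neither gene passed (H2-DMa 0.38, adjusted p = 0.334, and H2-DMb1 0.79, adjusted p = 0.0995, with 1 AG221 library left). The share of all genes called fell to 9.53% in the same setting. The H2-DMa call was also lost when A8, A10, WT B28 or WT B30 alone was left out (adjusted p = 0.0526, 0.0653, 0.0657 and 0.0792). The other 6 genes had adjusted p-values of 0.17 or more, with H2-Aa at 0.90 (SE 0.537) and H2-Ab1 at 0.00 (SE 0.549).

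With ruxolitinib alone, no member passed against WT, where 32.3% of genes did. That share was 10.6% without WT B30, 16.2% without A16, 19.5% without WT B28 and 20% without A17. Ctss came nearest (log2 fold change -0.84, SE 0.36, adjusted p = 0.0846 by the edgeR quasi-likelihood test), and without ruxolitinib A14 it passed (-1.15, adjusted p = 0.0467). Without the 3 libraries low in GC-rich genes it was at -0.65 (adjusted p = 0.229). Cd74 and Ctss were lower without overlap and H2-DMb1 was higher without overlap, which 32.8% and 25.4% of all genes also were.

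With combined treatment, none of 8 passed against WT, where 3.25% of genes did. The number of all genes called, 579, was 88 without B25, 145 without WT B28 or WT B30, 338 without B26, 403 without B24 and 1788 when these 2 groups were fitted alone. This is the comparison with WT in which all 6 library names begin with B. Ciita had a log2 fold change of -1.05 (SE 0.543), Cd74 of -1.0 (SE 0.596) and Ctss of -0.84 (SE 0.36), with adjusted p-values of 0.242, 0.307 and 0.164 by the edgeR quasi-likelihood test with Benjamini-Hochberg adjustment. Ciita and Cd74 did not overlap WT, as did 19.3% of all genes in the same direction. When the spread was estimated from these 6 libraries alone, Cd74 passed (-1.07, adjusted p = 0.0364). The chains were close to WT, at 0.08 for H2-Aa, 0.15 for H2-Ab1 and -0.01 for H2-Eb1.

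**Figure D2:**
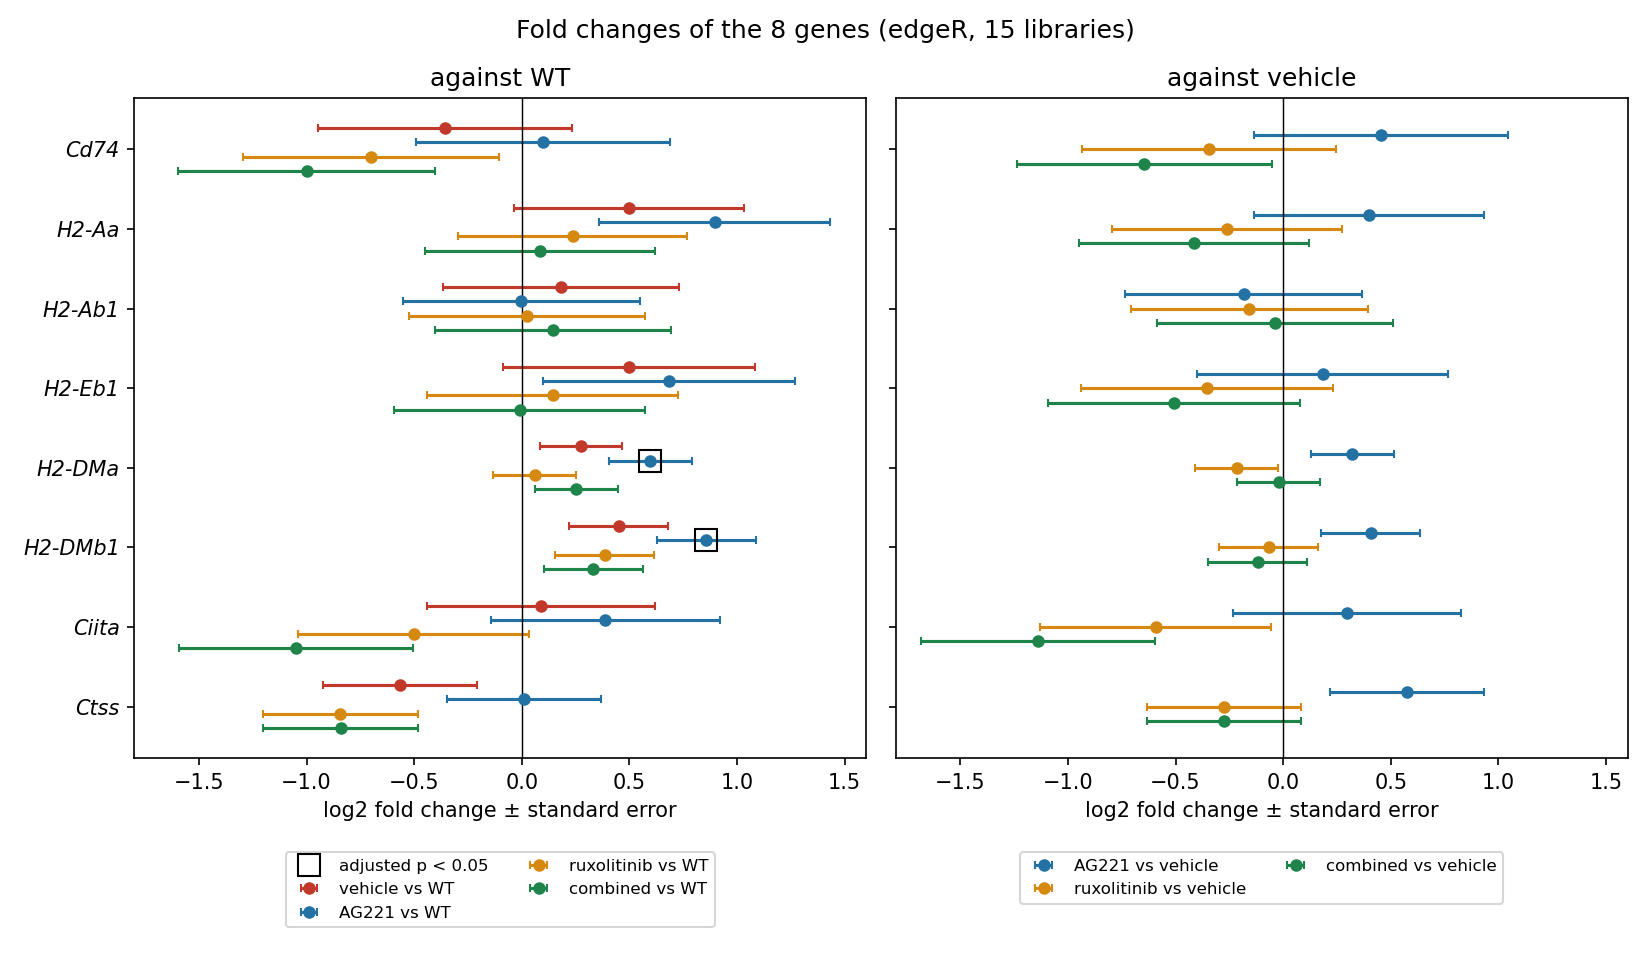
Log2 fold changes of the 8 genes with their standard errors (edgeR, all 15 libraries) for each mutant group against WT and for each drug against vehicle. The 2 squares mark H2-DMa and H2-DMb1 in AG221 against WT, where the adjusted p was under 0.05. Every other bar belongs to a difference that did not pass.

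The second question was what the drugs did to mutant cells, and here all comparisons share the 3 vehicle libraries. With AG221, no member passed, where 0.987% of genes did (log2 fold changes from -0.18 for H2-Ab1 to 0.58 for Ctss, adjusted p of 0.281 or more by the edgeR quasi-likelihood test). Without vehicle A4 the signs of Cd74, H2-Aa, H2-Eb1 and Ciita turned from positive to negative. H2-Ab1 turned positive without A8, A10, vehicle A1 or the 3 libraries low in GC-rich genes, and H2-Eb1 turned negative without A9. Ctss was higher without overlap, as were 12.7% of all genes, and without the 3 libraries low in GC-rich genes it was at 0.41 (adjusted p = 0.878). The number of all genes called here, 176, was 0 without A8, A10, vehicle A1 or vehicle A4, 27 without vehicle A3, 4672 without A9 and 2391 with DESeq2, so this background is not a steady one. With ruxolitinib, no member passed, where 0.0168% of genes did (3 genes, and 0 to 9 over the left-out libraries), and every adjusted p was 1. All 8 estimates were negative, from -0.07 for H2-DMb1 to -0.59 for Ciita, with a median of -0.27 against 0.01 over all genes. That sign rested on vehicle A1 for 7 of the 8. Without it Ctss alone stayed negative (-0.05), and the others ran from 0.04 for H2-DMa to 0.50 for H2-Aa, with a median over the 8 of 0.29. H2-Ab1 and H2-DMb1 also turned positive without ruxolitinib A16, and without the 3 libraries low in GC-rich genes.

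With combined treatment against vehicle, no member passed, where 12.5% of genes did (5.26% without vehicle A1, 5.52% without B24 and 6.12% without B25). All 8 estimates were again negative, from -0.02 for H2-DMa to -1.14 for Ciita, with a median of -0.34 against 0.04 over all genes. Without vehicle A1 the signs of H2-Aa, H2-Ab1, H2-Eb1, H2-DMa and H2-DMb1 turned and the median over the 8 was 0.22. Leaving out combined B25 turned those of H2-Ab1, H2-DMa and Ctss, with a median of -0.12. Ciita had an SE of 0.544 and an adjusted p of 0.2 by the edgeR quasi-likelihood test, and without vehicle A4 it passed (-1.58, adjusted p = 0.049), whereas without vehicle A1 it was at -0.22 (adjusted p = 0.854). The 95% interval for Ciita, from -2.31 to 0.03, and that for Cd74, from -1.92 to 0.63, show how wide a change these libraries could not resolve. For H2-DMa the interval was narrower, from -0.44 to 0.39.

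Combined treatment differed from either drug alone by less than the test's threshold. Against AG221, where 33.2% of genes passed, Ciita (-1.44, SE 0.547), H2-DMb1 (-0.52, SE 0.23) and Ctss (-0.85, SE 0.36) had the lowest p-values of the members, and their adjusted p-values were 0.0577, 0.0946 and 0.0835 by the edgeR quasi-likelihood test. The share of all genes that passed was 15.7% without A8, 16.9% without A10, 17.3% without B24 and 21.3% without B25. Each of the 3 was lower in all combined libraries than in all AG221 libraries, as were 20.3% of all genes. This is the comparison in which the choice of tool and scaling mattered most for the members, and DESeq2 called Ciita (-1.48, adjusted p = 0.0199) and Ctss (-0.91, adjusted p = 0.0426). Without the 3 libraries low in GC-rich genes, where 0.481% of all genes passed, Ciita was at -1.86, Ctss at -0.72 and H2-DMb1 at -0.48 (edgeR adjusted p = 0.207, 0.506 and 0.45). Against ruxolitinib, where 12.4% of genes passed, no member had an adjusted p under 0.587, and Ciita was at -0.55 (SE 0.542). That share was 5.99% without B24, 6.55% without B25, 6.88% without A16 and 7.53% without A17. A difference between the effect of combined treatment and the added log2 effects of AG221 and ruxolitinib, which 8.42% of genes showed, was found for no member (lowest adjusted p 0.349, H2-DMb1 at -0.46, SE 0.325). The number of all genes called for it, 1502, ran over single left-out libraries from 44 without B25 to 6087 without A9.

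At an unadjusted p under 0.05, members numbered 0 of 8 in vehicle against WT (46.1% of all genes), 2 in AG221 against WT (58.1%), 1 in ruxolitinib against WT (45.7%) and 1 in combined treatment against WT (25.4%). Against vehicle they numbered 0 with AG221 (25.2%), 0 with ruxolitinib (4.56%) and 0 with combined treatment (26.4%). In combined treatment they numbered 3 against AG221 (44.4%) and 0 against ruxolitinib (25.4%), and 0 for the difference from added effects (32%). No share exceeded that of all genes. DESeq2 called the same number of members as edgeR apart from combined treatment against AG221.

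Several members differed widely between libraries of 1 group. In the vehicle group the highest library exceeded the lowest 8.27-fold for H2-Eb1, 7.72-fold for Cd74, 7.45-fold for H2-Aa, 6.59-fold for Ciita and 4.13-fold for H2-Ab1, whereas in WT the same genes spanned 1.16-fold to 1.4-fold. H2-Ab1 was wider still with AG221 (5.33-fold), and Ctss was widest with combined treatment (3.05-fold, against 1.51-fold with vehicle). The SD of log2 CPM, as a median over the 8 genes, was 1.19 with vehicle, 0.605 with AG221, 0.48 with ruxolitinib and 0.459 with combined treatment, against 0.208 in WT. The median over all genes tested moved less, at 0.314, 0.371, 0.323, 0.247 and 0.207 in that order. Of all genes tested, 1.96% had a spread in the vehicle group at least as large as that of Cd74. The share was 2% for H2-Eb1, 2.38% for H2-Aa, 3.28% for Ciita and 7.22% for H2-Ab1. H2-DMa, H2-DMb1 and Ctss were not among the widely spread genes there (41%, 32.3% and 45.9%). These spreads are a description, and the difference between groups in spread was not tested.

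**Figure D3:**
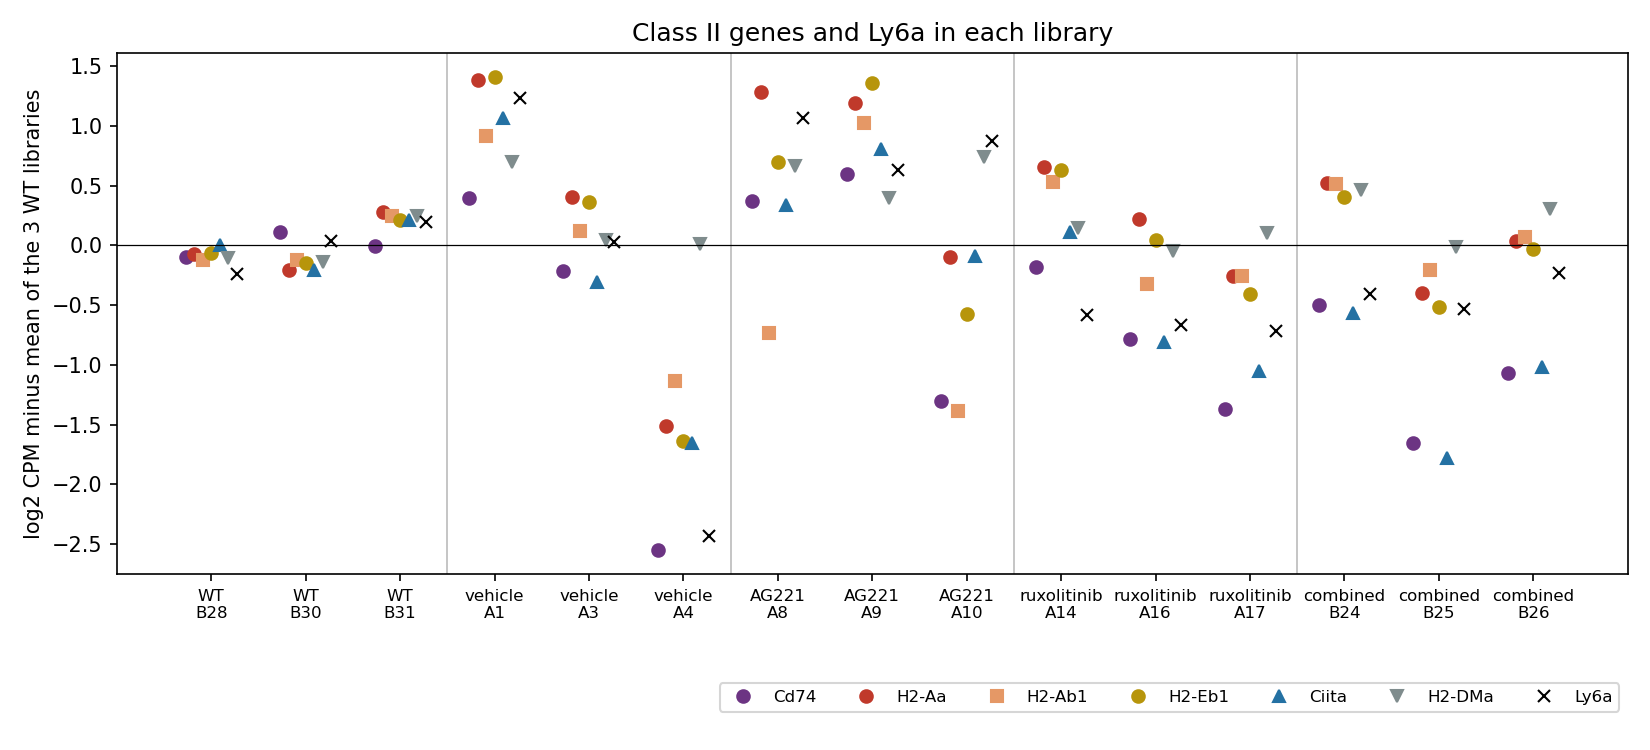
Log2 CPM of 6 class II genes and of Ly6a in each library, minus the mean of the 3 WT libraries, with vertical lines between groups. In vehicle A4 the chains, Cd74, Ciita and Ly6a are all low while H2-DMa is at the WT mean, and in AG221 A8 H2-Ab1 alone is low.

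The genes that spread also moved together. Over the 15 libraries Pearson's r of log2 CPM ran from 0.05 to 0.97 over the 28 pairs (median 0.6), and with group means removed from 0.26 to 0.98 (median 0.77). H2-Aa and H2-Eb1 had the highest r (0.97, and 0.98 with group means removed). Ciita had an r of 0.82 with both and of 0.88 with Cd74, and 0.94, 0.94 and 0.9 with group means removed. H2-DMa and H2-DMb1, the partners of 1 heterodimer, had an r of 0.85. H2-Ab1 with Ctss and H2-Ab1 with H2-DMa, both at 0.05, were the loosest pairs. These values describe libraries that share their group, depth and base composition, and the vehicle libraries A1 and A4 span the widest range. The r of other gene pairs was not taken, so these values have no background beside them. Over the 12 libraries of the other groups, with group means removed, r was 0.94 for H2-Aa with H2-Eb1 and 0.77 to 0.87 for Ciita with the 3 chains and Cd74. It was 0.52 for H2-DMa with H2-DMb1, against 0.77 with the vehicle libraries included, and 0.01 for H2-DMa with Cd74.

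Ratios between members were taken per kilobase of exon. H2-Aa exceeded H2-Eb1 by 1.89 to 2.39 times in 13 libraries, although vehicle A1 and A4 differed more than 7-fold in either gene, and by 3.16 and 2.96 times in AG221 A8 and A10. H2-Ab1 over H2-Aa was 1.3 to 2.46 in 13 libraries and 0.47 and 0.769 in the same AG221 A8 and A10. The GC content of the longest transcript is 57.3% for H2-Ab1, which is where the highest 10% of genes start, 51.8% for H2-Eb1 and 46.5% for H2-Aa. The class I genes H2-D1 and Tap1 were low in the same libraries, at 559 and 701 CPM for H2-D1 in A8 and A10 against 2310 CPM in A9, and at 120 and 141 CPM against 390 CPM for Tap1. Of the 9 class I genes, 5 were lower in both A8 and A10 than in A9, 3 were higher in both (B2m, Psmb9 and Nlrc5) and 1, Tap2, was lower in A8 and higher in A10. The part of this GC deviation in the H2-Ab1 values was not tested.

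The ratio of Cd74 to H2-Aa was higher in WT than in every mutant library. It was 3.08, 3.89 and 2.57 in WT, 1.58, 2.04 and 1.53 with vehicle, 1.68, 2.08 and 1.36 with AG221, 1.76, 1.57 and 1.45 with ruxolitinib and 1.54, 1.32 and 1.46 with combined treatment. The means of the mutant groups differed from that of WT by -0.88 to -1.12 on the log2 scale. The combined group, whose names share the letter B with WT, had the largest difference. The part of this letter in the ratios was not tested. The ratio was chosen after its values were seen, so it is given with no test. Of all genes tested, 7.32% had a ratio to H2-Aa that was higher in the 3 WT libraries than in the other 12, so such a pattern was not rare.

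Against H2-Eb1 the ratio was 5.68 to 7.93 in WT and 3.03 to 5.31 in the 12 mutant libraries. This is no separate result, because H2-Eb1 closely followed H2-Aa (r 0.97). Against H2-Ab1 the higher ratio in WT held for vehicle (0.622 to 1.31), ruxolitinib (0.767 to 1.21) and combined treatment (0.61 to 0.824), all under the WT range of 1.39 to 1.95. It did not hold for AG221 (1.24 to 3.57), the group of A8 and A10. The share of all genes with such a pattern was not taken for ratios to H2-Eb1 or H2-Ab1. Cd74 has a GC content of 56.6%.

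**Figure D4:**
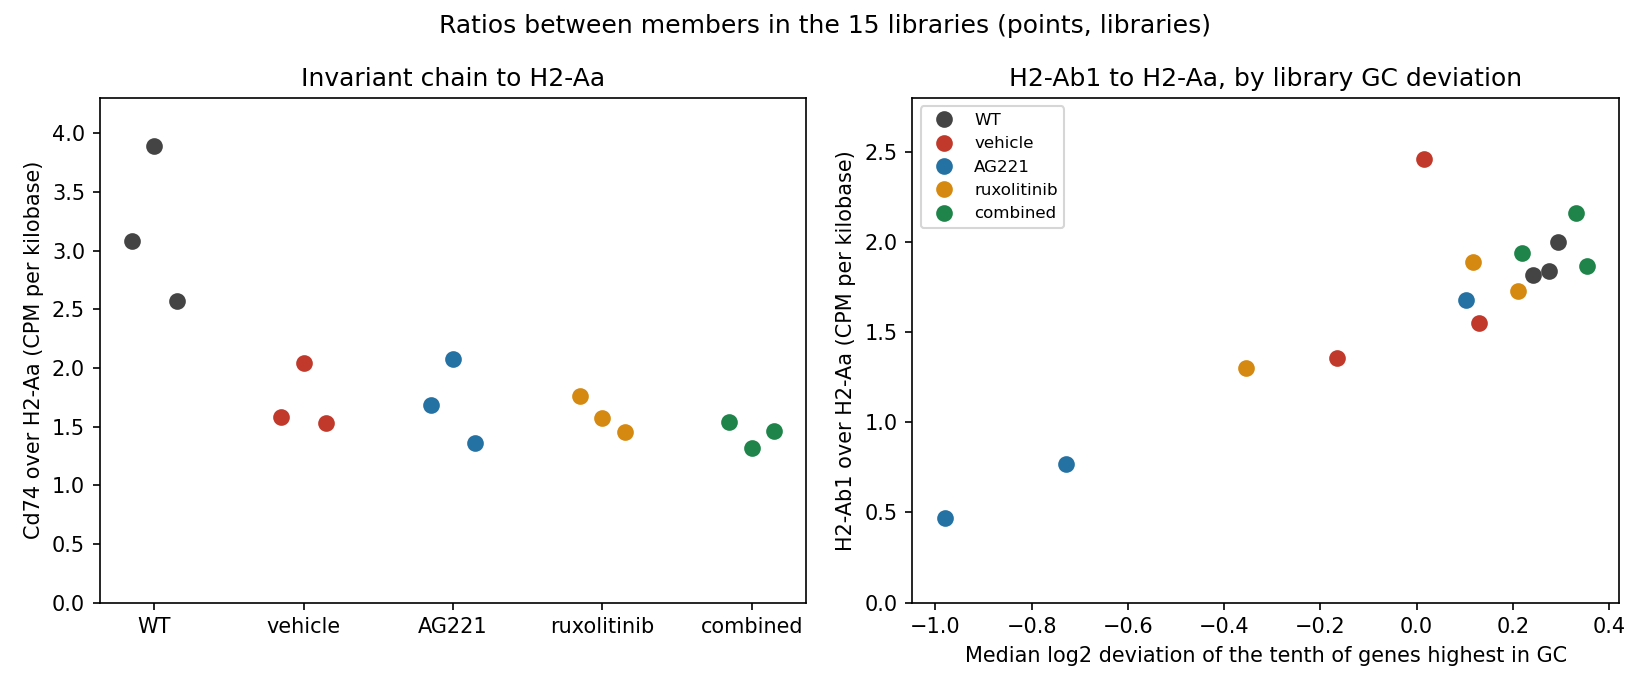
Left, Cd74 over H2-Aa (ratio of CPM per kilobase) in each library by group. The 3 WT libraries lie at 2.57 to 3.89 and the 12 mutant libraries at 1.32 to 2.08. Right, H2-Ab1 over H2-Aa against the median log2 deviation of the 10% of genes highest in GC content, where AG221 A8 and A10 lie lowest on both axes.

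Of 38 other tested genes of the class II pathway, 7 were called higher and 8 lower in vehicle against WT, against 15.4% and 17.9% of all genes. The accessory chains had none called among 4 (H2-Oa, H2-Ob, H2-DMb2 and H2-Eb2). H2-Ob, a subunit of the DO inhibitor of DM, was at 93.1 to 106 CPM in WT and 48.5 to 78.7 CPM with vehicle. Among 9 genes of lysosomal antigen processing, 4 were higher and 1 was lower. The thiol reductase Ifi30 rose by 1.30 (SE 0.238, adjusted p = 0.00365 by the edgeR quasi-likelihood test) and cathepsin Z (Ctsz) by 0.98 (SE 0.228). Cathepsin D (Ctsd) and the tetraspanin Cd63 rose by 0.52 and 0.55, and the lysosomal membrane gene Lamp1 fell by 1.59 (SE 0.49).

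The promoter factors and the route to Ciita were mixed. Rfxap, a subunit of the RFX complex that binds the X box, fell by 2.32 (SE 0.591), from 8.92 to 23.2 CPM in WT to 1.62 to 3.91 CPM with vehicle, and Nfyb, a subunit of NF-Y, rose by 0.72 (SE 0.184). The interferon-gamma receptor chain Ifngr1 rose by 0.84 (SE 0.146). Jak2 fell by 0.57 (SE 0.162), and Socs1, a feedback inhibitor of JAK kinases, fell by 2.25 (SE 0.734). The counts cannot tell the mutant from the WT Jak2 allele.

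Irf4, a lymphoid factor, fell by 4.76 (SE 0.669), from 4.86 to 23.5 CPM in WT to 0.355 to 0.526 CPM with vehicle. The ubiquitin ligase March8, which removes class II from the surface, fell by 1.15 (SE 0.332). Of the 4 costimulation genes, Cd86 fell by 1.36 (SE 0.356), from 11.5 to 14.3 CPM to 2.17 to 7.78 CPM, and Cd40 fell by 2.07 (SE 0.574). The adjusted p-values of these 4 genes were between 0.000808 and 0.0203 (edgeR quasi-likelihood test, Benjamini-Hochberg), and those of the other genes said to rise or fall in this comparison were under 0.05.

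In AG221 against WT, 9 of the 38 were higher and 10 lower, against 22.2% and 28.5% of all genes. Of the 9 lysosomal genes 6 were higher, Ifi30 by 2.08 (SE 0.243). The 6 markers of neutrophils, a cell type rich in such enzymes, summed to 2920 to 3270 CPM in WT and 14600 to 17500 CPM with AG221, of which Mpo made up 2160 to 2390 CPM and 10400 to 12400 CPM and Elane 650 to 780 CPM and 3680 to 4820 CPM. Both are granule genes that early myeloid progenitors also express. The 6 markers summed to 6550 to 11200 CPM with vehicle and 10700 to 16800 CPM with ruxolitinib. With combined treatment they summed to 3570 to 6240 CPM. The part of these markers in the lysosomal genes, here and in vehicle against WT, was not tested. In combined treatment against vehicle, 4 were higher and 2 lower, against 8.28% and 4.21% of all genes. The promoter factor Creb1 fell by 0.54 (SE 0.142). Rfxap rose by 3.25 (SE 0.611), Jak2 by 1.09 (SE 0.164), Lamp1 by 3.03 (SE 0.515) and March8 by 1.80 (SE 0.337), with adjusted p-values between 0.0021 and 0.0249 for these genes (edgeR quasi-likelihood test, Benjamini-Hochberg). In B24, B25 and B26, Rfxap was at 32.3, 38.2 and 10.4 CPM and Lamp1 at 138, 154 and 43.2 CPM. March8 was at 31, 39.6 and 17.6 CPM, so B26 was the lowest combined library for each of them. Rfxap was at 1.67 to 3.05 CPM with AG221 and 1.37 to 5.79 CPM with ruxolitinib. March8 was at 6.97 to 10.4 CPM and 7.87 to 11.5 CPM there. For both genes every library named in A lay under every library named in B, whereas for Lamp1 and Jak2 these sets overlapped. Combined treatment against vehicle compares B with A names, as vehicle against WT compares A with B. The part of the letter in these genes was not tested. In combined treatment against WT, 2 of the 38 were higher and 2 lower, where 3.25% of all genes were called in either direction. Ifngr1 (0.63, SE 0.146) and Ifi30 (0.98, SE 0.237) were higher and Irf4 (-5.43, SE 0.709) and Cd86 (-1.48, SE 0.358) were lower. In combined treatment against AG221, 10 were higher and 9 lower, against 18.9% and 14.3% of all genes. Ruxolitinib against vehicle called none of the 38, where 0.0168% of all genes were called.

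The class I genes, which present peptides from the cytosol and which Nlrc5 controls as Ciita controls class II, had calls against WT. In vehicle against WT, 4 of 9 were higher and 0 lower, where 15.4% of all genes were higher, namely Nlrc5 (1.02, SE 0.219), the proteasome subunits Psmb8 (0.57, SE 0.201) and Psmb9 (0.50, SE 0.162) and B2m (0.47, SE 0.147). Nlrc5 was at 106, 89 and 104 CPM in WT and at 274, 162 and 170 CPM with vehicle, and with combined treatment it fell to 77.3, 58.9 and 85.8 CPM (-1.45 against vehicle, SE 0.222, adjusted p = 0.00229 by the edgeR quasi-likelihood test). No other of the 9 class I genes was called in that comparison, where 12.5% of all genes were called and 4.21% were called lower. Ruxolitinib and combined treatment against WT called 0 of 9. These comparisons called 32.3% and 3.25% of all genes. AG221 against WT called 4 of 9, all higher, where 22.2% of all genes were called higher. These class I calls were not repeated with libraries left out or in the other settings. Whether class I and class II genes differed in their response was not tested.

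Marker genes of other cell types that carry class II were present in every group, and their part in the class II levels was not tested. The methods describe a lineage cocktail against B cell, T cell, NK, myeloid and erythroid surface antigens, used to exclude mature cells. The summed level of 10 conventional dendritic cell markers was 566 to 650 CPM in WT, 111 to 231 CPM with vehicle, 103 to 236 CPM with AG221, 103 to 282 CPM with ruxolitinib and 169 to 620 CPM with combined treatment, of which Flt3, which progenitors also express, made up 46.2 to 600 CPM in a library. Flt3 was at 518 to 600 CPM in WT, 87.8 to 191 CPM with vehicle and 46.2 to 173 CPM with AG221. Of the 10 markers, 1 was called higher and 4 lower in vehicle against WT, where 15.4% and 17.9% of all genes were. Their median log2 fold change there was -1.1. In AG221 against WT, 2 were called higher and 4 lower, where 22.2% and 28.5% of all genes were. The r of the summed level with the class II score, the mean of the 8 scaled log2 levels, was 0.11 over the 15 libraries. This sum is weighted towards Flt3, which made up 600 of 650 CPM in WT B30, so its r does not describe the less abundant markers. Itgax, on the same list, had an r of 0.8 with the score (below), and the r of the sum without Flt3 was not taken. The 10 B cell markers summed to 71.7 to 102 CPM in WT and 30.4 to 59.8 CPM in the mutant groups (r 0.2), of which Cd79b alone made up 24.4 to 54.5 CPM in a library. The median log2 fold change of the 10 in vehicle against WT was -1.60, and Pax5 had 3 counts or fewer in 5 libraries. The 10 monocyte and macrophage markers summed to 460 to 512 CPM in WT, 1010 to 1160 CPM with vehicle, 1680 to 2480 CPM with AG221, 935 to 1660 CPM with ruxolitinib and 663 to 1080 CPM with combined treatment (r 0.37). For plasmacytoid dendritic cells (8 markers, 51.6 to 110 CPM, of which Bst2 made up 47.4 to 87.6 CPM) r was 0.51, and Siglech was at 0 in 1 library and Klk1 in 8. No other marker of these 4 lists was at 0 in any library. The 6 plasma cell markers summed to 595 to 1280 CPM in WT and 35 to 217 CPM in the mutant groups (r -0.25), and 5 of 6 were called lower in vehicle against WT, where 17.9% of all genes were, with a median log2 fold change of -4.39. Among them Jchain was at 422 to 935 CPM in WT and 4.5 to 18.4 CPM with vehicle, and WT B30 was the highest library both for Jchain and for Irf4. The part of these cells in the Irf4 values was not tested. The defining genes of LSK cells were present, Kit at 740 to 1550 CPM and Ly6a, which encodes Sca-1, at 13.1 to 166 CPM. The 11 LSK markers summed to 4290 to 4680 CPM in WT and 2440 to 3810 CPM with vehicle. They summed to 2570 to 2990 CPM with AG221, 2920 to 3450 CPM with ruxolitinib and 2840 to 3670 CPM with combined treatment. In vehicle against WT, 2 of the 11 were called higher and 3 lower, where 15.4% and 17.9% of all genes were.

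The genes whose pattern over the 15 libraries was most like the class II score were, by Pearson's r, Iqsec2 (0.86), Slc12a9 (0.86), Gm19325 (0.83), H2-DMb2 (0.83), Apol7e (0.83), Ly6a (0.82), Itgax (0.8), Icosl (0.8), Jaml (0.79) and Gbp2 (0.79). Of 17826 genes ranked, 7 reached 0.8 before rounding and the median r was 0.01. By Spearman's rho, 4 of these 10 remained among the first 10. Ly6a is the gene of an antigen by which the cells were sorted. It was at 166, 71.9 and 13.1 CPM in vehicle A1, A3 and A4, and so was highest and lowest in the same libraries of that group as the chain genes. It was at 59.9 to 81 CPM in WT, 109 to 148 CPM with AG221, 42.9 to 47 CPM with ruxolitinib and 48.8 to 60.1 CPM with combined treatment. Itgax encodes CD11c of dendritic cells and was at 1.9 to 8.2 CPM, and Gbp2, an interferon-induced GTPase, at 36 to 94 CPM. Iqsec2 and Slc12a9 spanned narrow ranges, from 4.42 to 7.74 CPM and from 19.8 to 31.2 CPM.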

How the data were processed

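CD45.2+ LSK cells were sorted from bone marrow depleted of mature cells, and libraries were made with SMARTer amplification and sequenced paired-end. The authors aligned reads to mm10 (GRCm38) with STAR 2.5.1a and deposited raw counts per Ensembl gene; the annotation release was not given in the sources used here. Their table of normalized values was not used.

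Symbols, exon lengths and GC content came from GENCODE release M21 (44585 IDs matched). Counts were scaled by TMM, filtered by expression per group (17834 genes) and tested with edgeR 4.0.16 (quasi-likelihood test, R 4.3.3) in 1 model of all 15 libraries, with Benjamini-Hochberg adjustment over all genes tested and a threshold of 0.05. The study used DESeq2, which (1.42.0) was an alternative here. CPM use TMM library sizes, and log2 CPM a prior count of 2. Members and gene lists were chosen with earlier results of these data known. Named were all members, list genes called in vehicle or combined against WT or combined against vehicle, and the 10 genes most correlated with the class II score. A list gene that met this rule is counted but not reported here. The procedure was tested on simulated data. Intervals cover the spread between libraries. Other settings were normalization, filters, groups fitted, left-out libraries and GC content offsets. The calls of the listed pathway, class I and marker genes were not repeated in them.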

Additional observations from a re-analysis of the deposited data

How the results depend on the processing

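No paired analysis was possible because no replicate number is shared between groups. Of 484 values of the 34 member fold changes that exceeded their standard error, 456 kept their direction and side of the threshold under the settings tried, 20 passed the threshold only under the other setting, 6 lost it and 2 changed sign. Both changes of sign came without vehicle A1, in ruxolitinib against vehicle, where the values ran from -0.34 to 0.0399 for H2-DMa and from -1.03 to 0.33 for Ciita over the left-out libraries. Fold changes within their standard error are outside this tally, and their signs turned more often. Without vehicle A1, 7 of 8 members turned sign in ruxolitinib against vehicle and 5 of 8 in combined treatment against vehicle. Over the other left-out settings and comparisons, 0 to 4 of 8 turned.

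The number of members called in combined treatment against AG221, 0 in the report, was 2 with DESeq2, 1 with RLE normalization, 4 with upper quartile normalization, 2 without the filter, 1 with at least 10 counts in every library, 1 with the compared groups alone, 4 with GC content offsets (added after seeing the data) and 0 to 1 over the left-out libraries (1 without combined B26). In combined treatment against WT it was 1 with the compared groups alone. In AG221 against WT it was 1 to 2 over the left-out libraries and 0 without the 3 libraries low in GC-rich genes (added after seeing the data). It was 0 to 1 over the left-out libraries in combined treatment against vehicle and in ruxolitinib against WT. Where fewer libraries were left, a lone library was assumed to vary like the other groups. The cause of these shifts was not tested. By Spearman's rho, 4 of the 10 genes most like the class II score remained. Upper quartile normalization moved the median of all genes, from 0.11 to -0.18 in combined treatment against AG221. Without TMM, 37 of 40 group levels moved by less than 1 SD.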
